A study of Rattus norvegicus with 8 samples.

Results

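The cornified envelope is the cross-linked protein shell of the outermost cells of the epidermis, and the genes examined here encode its structural proteins and the enzymes that join or process them. The set held 10 rat genes, chosen by name: Ivl, Tgm1, Tgm3, Tgm5, Evpl, Ppl, Cdsn, Casp14, Sprr1b and Krtdap. Their probes were found through the RefSeq accession that the array gives each probe. Of the 10 genes, 5 had a probe (Ivl, Evpl, Ppl, Tgm1 and Tgm3), out of 13903 named genes with a probe on the array. The other 5, Tgm5, Cdsn, Casp14, Sprr1b and Krtdap, matched no probe by accession and have no value here. Each measured gene was read by 1 probe, printed as 1 spot per array, and all 5 were well above background in all 8 samples and entered the test.

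Skin of male Sprague-Dawley rats was compared between animals injected intraperitoneally with 60 mg/kg streptozotocin (STZ), which kills pancreatic beta cells, at 4 weeks of age, and sham-treated animals given sodium citrate solution. Full-thickness skin was taken 4 weeks later, at 8 weeks of age, and its RNA was read on Agilent arrays with a single dye, Cy3. The labels list 4 STZ and 4 sham samples, but the file headers place replicates 1 and 3 of each group at the same position of 1 slide, read in 2 scans, and likewise replicates 2 and 4. Such rescans were averaged, which left 2 arrays per group, called array 1 (replicates 1 and 3) and array 2 (replicates 2 and 4). Blood glucose of the animals and the number of rats behind an array are not given in the sources used here, and the labels also mention a skin wound without saying whether the profiled skin had one. Whether the arrays hold separate animals is not stated, so p-values measure only the spread between these arrays. Markers of skin were present as labelled. Krt14 and Krt15 of basal keratinocytes, Krt1 of suprabasal keratinocytes and Col1a2 of fibroblasts were well above background in 8 of 8 samples. Krt4, a keratin of internal stratified epithelia, was so in 0. Krt13, Mal and Ecm1, from the same list of markers of other stratified epithelia, were so in 8 of 8. These markers therefore do not set skin apart from such epithelia.

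The 75th percentile of spot intensity, used to scale each sample, was 1481 and 1496 in the scans of STZ array 1, 606 and 624 in those of STZ array 2, and 1138 to 1336 in the sham samples. After scaling, the median of all 21527 tested probes lay 0.23 above 0 in log2 terms for STZ minus sham (−0.04 with quantile-normalized values). Changes below are therefore STZ minus sham relative to that median, while levels are log2 intensities over the array's 75th percentile. The p-values instead test the change before that median is taken off. That change was −1.67 for Ivl, −2.44 for Evpl, −0.88 for Ppl, 0.37 for Tgm1 and 0.62 for Tgm3. Levels of different probes are not comparable, because probes differ in how brightly they report.

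In living keratinocytes, involucrin, encoded by Ivl, and the plakins envoplakin (Evpl) and periplakin (Ppl) are laid down beneath the plasma membrane as the first scaffold of the envelope. Transglutaminases then tie these and later precursors together through bonds between glutamine and lysine side chains. Transglutaminase 1 (Tgm1) is anchored to the membrane and also attaches lipids to the scaffold, and transglutaminase 3 (Tgm3) is a soluble enzyme of the upper epidermis and the hair follicle. Of the genes without a value, Tgm5 encodes a further epidermal transglutaminase, Cdsn the adhesive protein corneodesmosin, Casp14 a caspase that helps to break down filaggrin, Sprr1b a small proline-rich precursor, and Krtdap a secreted protein of differentiating keratinocytes.

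Promoter windows of 300 bases (250 before to 50 after the start used in the RefSeq table, build GRCr8) were given for 9 of the 10 genes, all but Evpl. The windows of Ivl, the gene with the smallest p, and of Tgm3, which lay on the other side of the median, are shown to set their motifs side by side. They lie at chr2:180846529-180846828 (minus strand) and chr3:137681559-137681858 (plus strand) and are written 5′ to 3′ along the gene. Capitals mark CACCC or its reverse complement GGGTG, a box that Klf4-type factors can bind, and TATAA, the core of a TATA box.
Ivl: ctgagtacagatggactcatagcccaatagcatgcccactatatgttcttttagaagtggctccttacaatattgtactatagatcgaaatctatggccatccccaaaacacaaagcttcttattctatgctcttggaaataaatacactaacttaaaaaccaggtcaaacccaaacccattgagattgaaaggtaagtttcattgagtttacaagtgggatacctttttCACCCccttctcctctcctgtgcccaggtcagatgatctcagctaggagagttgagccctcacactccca
Tgm3: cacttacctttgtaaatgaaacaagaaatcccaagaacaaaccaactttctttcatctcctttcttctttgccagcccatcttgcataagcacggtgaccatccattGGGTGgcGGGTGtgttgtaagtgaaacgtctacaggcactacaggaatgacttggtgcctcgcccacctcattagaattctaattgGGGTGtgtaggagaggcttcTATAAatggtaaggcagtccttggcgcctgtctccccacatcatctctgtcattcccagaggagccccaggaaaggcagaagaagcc
The Ivl window held 1 CACCC, which starts at position −20 from the start, and no TATAA, while that of Tgm3 held 3 GGGTG, at −143, −136 and −57, and 1 TATAA at −37. CACCC or GGGTG stood in 9 of the 9 windows and in 54.9% of all 33469 windows of the same length. TATAA, searched on the gene strand, stood in 3 of the 9, those of Tgm3, Sprr1b and Krtdap, and in 18.4% of all. The AP-1 motif TGANTCA, which reads the same on both strands, matched in the windows of Sprr1b (at −116) and Krtdap (at −81), which have no value here, and in none of those of Ivl, Tgm1, Tgm3 and Ppl. It stood in 7.33% of all windows. A match in a window is a description of its letters and not a bound site.

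The 3 scaffold genes Ivl, Evpl and Ppl were lower in STZ skin and both transglutaminase genes were close to the median of all probes. Ivl was 3.72-fold lower, Evpl 6.35-fold lower and Ppl 2.15-fold lower, whereas Tgm3 was 1.31-fold and Tgm1 1.11-fold higher. After adjustment over all 21527 probes no gene of the set passed limma's moderated test, and neither did any other probe (0% called). At an unadjusted p under 0.05, 1 of the 5 was lower, Ivl, and 0 were higher, against 3.54% (761) of all tested probes lower and 7.32% (1575) higher. After quantile normalization that split over all probes was 1152 lower and 1233 higher. With 2 arrays against 2, an exact permutation test of 1 gene cannot give a p below 0.333. RNA of whole skin cannot tell fewer cells of a type from less RNA per cell.

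Ivl stood at 2.64 on STZ array 1 and 2.47 on STZ array 2, against 4.11 and 4.34 on sham arrays 1 and 2. Both STZ arrays lay below both sham arrays, and arrays of 1 group differed by 0.18 (STZ) and 0.23 (sham). In the scanner's own units the processed signal was 9241 and 9346 in the scans of STZ array 1 and 3346 and 3456 in those of STZ array 2, against 19636 to 27029 in the sham samples. The mean was 2.55 ± 0.12 in STZ and 4.22 ± 0.16 in sham skin (SD, n = 2 arrays each), and the log2 change was −1.89 ± 0.42 (SE; unadjusted p = 0.0109 and adjusted p = 0.265 by limma). The gap between the groups exceeded the spread between arrays of either group. Without sham array 1 the unadjusted p was 0.0631 and without sham array 2 it was 0.0925, at changes of −1.98 and −1.80.

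Evpl had the widest spread of the 5 genes. It stood at −1.05 and −3.47 on the STZ arrays, against −0.52 and 0.87 on the sham arrays. The groups did not overlap, but the STZ arrays lay 2.42 apart. That distance was larger than in 94.4% of tested probes, and the distance of 1.39 between the sham arrays larger than in 90.5%. The processed signal was 54 and 57 on STZ array 2 and 711 and 724 on STZ array 1, against 791 to 2426 in the sham samples. The log2 change was −2.67 ± 0.97 (SE; unadjusted p = 0.0541, adjusted p = 0.471, limma), from means of −2.26 ± 1.71 in STZ and 0.18 ± 0.98 in sham (SD, n = 2 each). The change was −4.03 without STZ array 1, −1.26 without STZ array 2, −3.33 without sham array 1 and −1.999 without sham array 2.

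Ppl, the partner of envoplakin, stood at −1.19 and −1.97 on the STZ arrays, against −0.61 and −0.79 on the sham arrays. The STZ arrays were again both below the sham arrays. Its log2 change was −1.11 ± 0.48 (SE; unadjusted p = 0.128, adjusted p = 0.584, limma). Without STZ array 2 the change was −0.52, and without STZ array 1 it was −1.65.

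Tgm1 stood at 3.89 and 2.45 on the STZ arrays, against 2.97 and 2.63 on the sham arrays. The sham arrays lay between the STZ arrays, so the groups overlapped. The log2 change was 0.14 ± 0.62 (SE; unadjusted p = 0.576, adjusted p = 0.833, limma), and its sign turned with the array left out, to −0.73 without STZ array 1 and −0.05 without sham array 2. Tgm3 stood at 6.12 and 5.84 on the STZ arrays, against 5.58 and 5.13 on the sham arrays. Both STZ arrays lay above both sham arrays, as did those of 26.9% of tested probes. Its log2 change was 0.39 ± 0.45 (SE; unadjusted p = 0.222, adjusted p = 0.636, limma), 0.10 without STZ array 1, 0.14 without sham array 2 and 0.73 without STZ array 2.

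**Figure D1:**
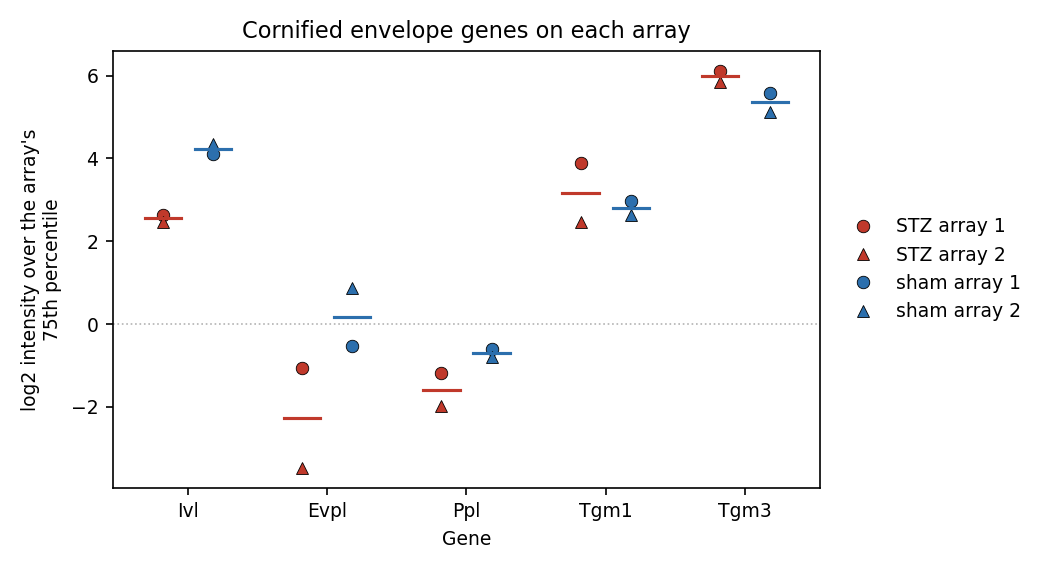
Log2 intensity, scaled to each array's 75th percentile (vertical axis), of the 5 measured cornified envelope genes (horizontal axis) on the 2 STZ arrays (red) and the 2 sham arrays (blue); symbols are single arrays, the mean of 2 scans each, and bars are group means. Ivl, Evpl and Ppl lie lower on both STZ arrays than on both sham arrays, and the STZ arrays are far apart for Evpl and Tgm1.

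In 3 of the 5 genes (Ivl, Evpl and Ppl) both STZ arrays were below both sham arrays, a pattern found in 17.9% of tested probes, and in 1, Tgm3, both were above. Rescans of the same array differed by at most 0.0748 in log2 in any of the genes, so scanning added little to these distances. In all 5 genes the lower STZ value was that of array 2, whose 75th percentile was also the lowest. The part of overall brightness in these values was not tested. The median change of the 5 genes was −1.11, where the median of all tested probes is 0 by construction, and it was −1.65 without STZ array 1 and −0.52 without STZ array 2.

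Ratios between genes of the same array do not depend on the percentile used to scale it. Every one of the 4 ratios that set a transglutaminase gene over Ivl or Evpl was higher on both STZ arrays than on both sham arrays. Such a lack of overlap, in either direction, was found in 49.5% of all pairs of named genes. The log2 ratio of Tgm3 over Ivl was 3.48 and 3.37 on the STZ arrays, against 1.48 and 0.79 on the sham arrays, a difference of 2.29 or 4.89-fold. That of Tgm1 over Ivl was 1.24 and −0.01 on the STZ arrays, against −1.14 and −1.71 on the sham arrays, a difference of 2.04. Over Evpl the differences were 3.06 for Tgm3 and 2.81 for Tgm1, and over Ppl they were 1.501 and 1.25, again without overlap. The ratio of Tgm3 over Tgm1 overlapped between the groups, with a difference of 0.25. Among the scaffold genes, Ppl over Ivl was higher by 0.79 without overlap, while Ppl over Evpl and Ivl over Evpl overlapped. In all, 7 of the 10 pairs did not overlap, to be read against that 49.5%. These ratios share genes and arrays, and none can pass an exact permutation test with 2 arrays per group.

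**Figure D2:**
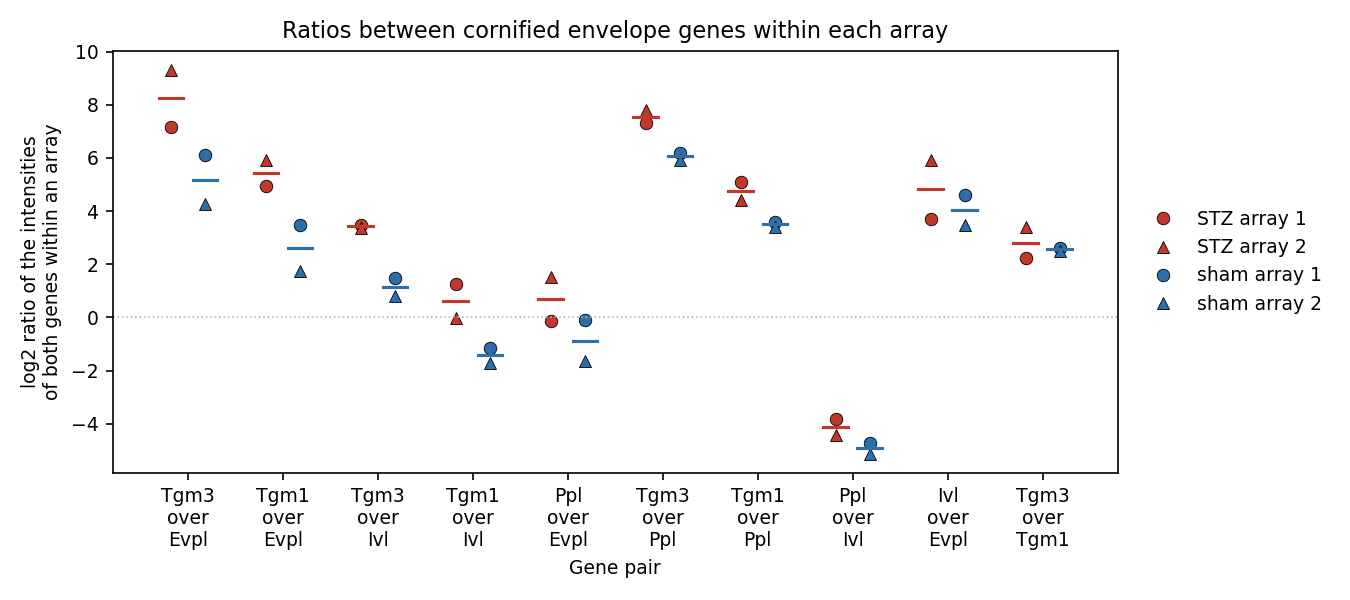
Log2 ratio of the intensities of 2 genes within an array (vertical axis) for the 10 pairs of measured genes (horizontal axis), on the 2 STZ arrays (red) and the 2 sham arrays (blue), with bars at the group means. Only distances between the groups are comparable, not the levels of different pairs; both STZ arrays lie above both sham arrays in 7 pairs, by 2.29 on average for Tgm3 over Ivl.

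Other genes of envelope assembly, drawn from 7 lists, did not all differ in the same direction. Of 12 tested precursors, 7 were higher and 5 lower than the median of all probes (list median 0.19). At an unadjusted p under 0.05, 1 was lower, against 3.54% of all tested probes. That gene was Scel, sciellin, a precursor of the envelope, at 2.50 and 1.64 on the STZ arrays, against 3.72 and 3.13 on the sham arrays (log2 change −1.59 ± 0.53, SE; unadjusted p = 0.0499 by limma). That call was lost without STZ array 2 (change −0.96), without either sham array and under 5 other settings (no filter, another percentile, first scans only, replicate block and array weights). Csta, the protease inhibitor cystatin A, had a change of 1.08 ± 0.57, and the proline-rich precursor Sprr3 one of 1.17 ± 0.69. Neither was at an unadjusted p under 0.05. Both STZ arrays lay above both sham arrays in each, as in 5 of the 12 tested precursors and in 26.9% of all tested probes. Sprr3, whose levels lay far below the 75th percentile, had changes of 0.69 after quantile normalization, 0.29 with normexp added, 0.50 without STZ array 2 and 1.89 without STZ array 1. Csta was at 0.56 without sham array 2. Cst6, cystatin M/E, an inhibitor of the proteases that act on transglutaminase 3, had a change of −1.51 ± 0.83 with overlap between the groups, which was −0.28 without STZ array 2 and −2.71 without STZ array 1. The adjusted p of these 4 genes ran from 0.46 to 0.617.

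Ivl lies among the envelope precursor genes of the epidermal differentiation complex on chromosome 2. From Loricrin to Tchhl1 the RefSeq table of GRCr8 lists 53 protein-coding genes, of which 7 had a tested probe. Ivl, around which the interval was drawn, was the 1 gene of these at an unadjusted p under 0.05. It was lower, as were 3.54% of all tested probes at that threshold. The nearest measured genes on either side, Sprr3 and Smcp, the gene of a sperm mitochondrial protein, had changes of 1.17 and −0.18. The late envelope genes Lce1e, Lce1f and Lce1m had changes of 0.42, 0.13 and −0.24, and Kprp, a keratinocyte proline-rich protein, one of −0.61. Lce1 genes resemble each other in sequence, so their probes may share transcripts. The interval was chosen after the values were seen.

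Of the other transglutaminase genes, 3 had a tested probe. Epb42, the red cell membrane protein band 4.2, which resembles a transglutaminase but lacks its activity, was at −3.08 and −4.04 on the STZ arrays, against −2.27 and −2.03 on the sham arrays (log2 change −1.64 ± 0.52, SE; unadjusted p = 0.0413, adjusted p = 0.437, limma). That unadjusted call was lost without STZ array 2 (change −0.96), without either sham array, with no filter and with the replicate block. Tgm2, the widely expressed tissue transglutaminase, was higher by 0.59 ± 0.42 (SE; unadjusted p = 0.107 by limma). Both its STZ arrays lay above both sham arrays, as in 26.9% of tested probes. The change of Tgm2 was 0.37 without STZ array 1 and 0.92 after normexp with quantile normalization. Tgm4, a prostate enzyme, had a change of 0.19 ± 0.63. The plakins Dst, Macf1 and Plec, which link the cytoskeleton to junctions, had changes of −0.05, −0.47 and −0.34 with overlap in each. Their signs turned when an array was left out, and for Dst also after quantile normalization (0.29).

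Desmosomes, the junctions that corneocytes keep in modified form, had 8 of 8 tested genes lower than the median of all probes, with a list median of −0.88. At an unadjusted p under 0.05, 2 were lower, against 3.54% of all tested probes, and none passed after adjustment. Dsg4, the desmoglein of the hair follicle, was at −1.52 and −4.32 on the STZ arrays, against 3.15 and 2.54 on the sham arrays (log2 change −5.99 ± 0.996, SE; adjusted p = 0.165, limma). Dsc2, a desmocollin, was at 0.66 and −0.51 on the STZ arrays, against 3.34 and 4.31 on the sham arrays (−3.98 ± 0.63; adjusted p = 0.159). Pkp3, a plakophilin, had a change of −1.96 ± 0.82, which was −0.66 without STZ array 2 and −3.22 without STZ array 1. Both its STZ arrays lay below both sham arrays, as in 17.9% of tested probes. Dsc3, a desmocollin of the lower epidermis, had a change of −0.94 ± 0.91 with overlap. It turned to 0.52 without STZ array 2 and was −2.35 without STZ array 1.

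Proteases and inhibitors of desquamation and of filaggrin processing lay on both sides, with 11 of 20 tested genes above and 9 below the median of all probes. At an unadjusted p under 0.05, 3 were higher and 4 lower, against 7.32% and 3.54% of all tested probes. Serpinb12, a serine protease inhibitor, was at 4.11 and 3.41 on the STZ arrays, against 1.76 and 0.02 on the sham arrays (log2 change 2.64 ± 0.72, SE), and Klk9, a kallikrein-related protease, at 2.40 and −0.04 on the STZ arrays, against −1.76 and −2.82 on the sham arrays (3.25 ± 0.94). St14, matriptase, a membrane protease of the epidermis, was at 2.95 and 2.18 on the STZ arrays, against 4.53 and 4.39 on the sham arrays (−2.12 ± 0.48). Capn12, a calpain known from the mouse hair follicle, had a change of −4.60 ± 0.51. The adjusted p of these 4 genes ran from 0.102 to 0.295. Without sham array 2 the unadjusted p by limma was 0.0545 for Serpinb12 (change 1.75) and 0.0645 for Klk9, and St14 was at 0.0595 without sham array 2 and 0.074 without sham array 1. Klk9 was at 1.87 without STZ array 1.

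Of 12 tested genes of the envelope lipids, 7 were higher and 5 lower, with a list median of 0.30. At an unadjusted p under 0.05, 1 gene, Plb1, was lower, against 3.54% of all tested probes. Plb1, a phospholipase, was at −2.62 and −2.87 on the STZ arrays, against 0.20 and 0.25 on the sham arrays (log2 change −3.19 ± 0.42, SE; adjusted p = 0.137). Alox12b, the lipoxygenase that prepares ceramides for attachment to the envelope, had a change of 1.69 ± 0.90, Ugcg, glucosylceramide synthase, one of 0.96 ± 0.51, and Degs2, an enzyme of phytoceramide synthesis, one of 0.90 ± 0.54. In each of these 3, named for their small p, both STZ arrays lay above both sham arrays (unadjusted p from 0.0685 to 0.0937 by limma). So did those of 4 of the 12 tested genes, against 26.9% of all tested probes. All 3 moved with the array left out: without STZ array 1 Alox12b was at 0.74, Ugcg at 0.39 and Degs2 at 0.28, and without STZ array 2 they were at 2.68, 1.57 and 1.56. Without sham array 2 Alox12b was at 0.68 and Degs2 at 0.55, and with the replicate block the unadjusted p of Alox12b was 0.0188 by limma.

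Among 19 tested regulators of terminal differentiation, 14 were lower and 5 higher, with a list median of −1.12. At an unadjusted p under 0.05, 5 were lower, against 3.54% of all tested probes. Fos, an AP-1 subunit induced within minutes of a stimulus, was at −1.07 and −1.54 on the STZ arrays, against 2.69 and 2.35 on the sham arrays (log2 change −4.05 ± 0.45, SE; adjusted p = 0.102). Dlx3, a homeobox factor of the epidermis and hair, was at −0.16 and 0.00 on the STZ arrays, against 2.45 and 2.67 on the sham arrays (−2.87 ± 0.42; adjusted p = 0.152). Gata3, a factor of the epidermis and the inner root sheath, had a change of −2.71 ± 0.54, and Notch1, a receptor that promotes spinous differentiation, one of −1.995 ± 0.497. The remaining one of the 5, Ovol1, was chosen after its values were seen and had a change of −2.01 (−1.03 without STZ array 2). Also added after their values were seen, the other AP-1 genes Jun, Junb and Fosl1 had changes of −1.13, −0.14 and 1.24. Klf4 had one of −0.47. None of them was at an unadjusted p under 0.05 by limma. Without sham array 1 the unadjusted p by limma was 0.0729 for Notch1 and 0.125 for Ovol1, and without sham array 2 it was 0.0976 and 0.131.

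**Figure D3:**
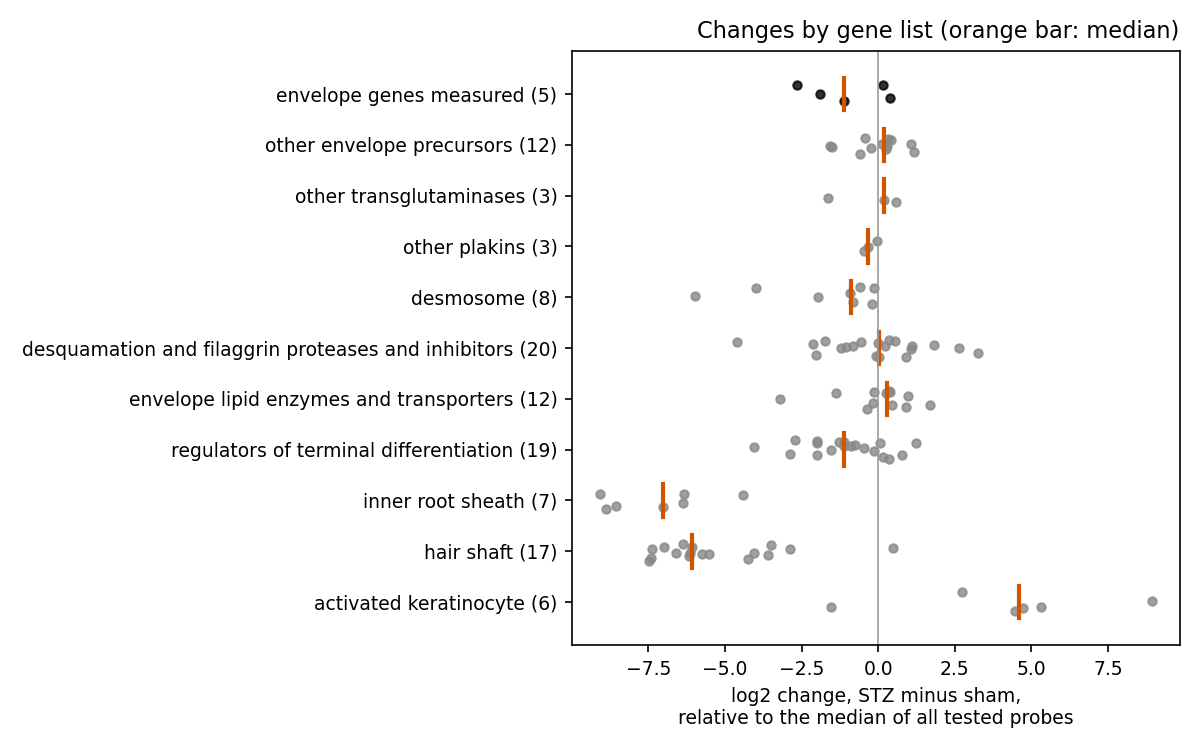
Log2 change of STZ minus sham set against the median over tested probes (horizontal axis) for each gene with a tested probe (points, 1 probe per gene) in the measured envelope genes (black), the 7 related lists and 3 marker lists (grey), with orange bars at the list medians and gene numbers in brackets. The envelope genes span −2.67 to 0.39, the other precursors centre at 0.19 and the inner root sheath list at −7.04.

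Markers of other cell types also differed between the groups. Inner root sheath markers were lower in 7 of 7 tested genes, all at an unadjusted p under 0.05, against 3.54% of all tested probes. Their summed intensity was 90.3 times the 75th percentile on STZ array 1 and 2.86 times on STZ array 2, against 607 and 563 on sham arrays 1 and 2. Hair shaft markers were lower in 16 of 17, with sums of 27.4 on STZ array 1 and 4.71 on STZ array 2, against 497 and 627 on sham arrays 1 and 2. STZ array 2, the lower STZ array for all 5 measured genes, was also the lower one for both follicle lists. It was the lower one too for the sums of basal, suprabasal and activated keratinocyte, sebaceous, neutrophil and other stratified epithelial markers. It was the higher one for those of fibroblasts, adipocytes, skeletal muscle, macrophages, T cells and endothelium. Markers of activated keratinocytes were higher in 5 of 6, with sums of 145 to 193 on the STZ arrays, against 39.7 to 41.1 on the sham arrays. The exception was Krt17, the brightest of them on the sham arrays, with a change of −1.54 and overlap between the groups. S100a8 and Slpi made up most of the sums on the STZ arrays. Of 3 tested basal keratinocyte markers, 1 was higher and 2 lower (list median −0.28). Their sums were 224 to 250 on the STZ arrays, against 130 to 283 on the sham arrays. Suprabasal keratins were likewise higher in 1 and lower in 2 of 3 (list median −0.58), with Krt1 at 1.33 and Krt77 at −2.92. Their sums, mostly Krt1, were 35.4 to 90.4 on the STZ arrays, against 16.2 to 39.6 on the sham arrays. Sums of the macrophage markers were 118 to 146 on the STZ arrays, against 20.6 to 36.3 on the sham arrays, those of neutrophils 2.59 to 6.69 against 0.331 to 0.407 and those of T cells 7.98 to 12.2 against 1.29 to 1.53. All 6 macrophage, 5 neutrophil and 6 T cell genes tested were higher. Adipocyte markers were lower in 4 of 4 genes, with sums of 36 to 67.6 on the STZ arrays, against 134 to 168 on the sham arrays. Fibroblast markers summed to 434 to 881 on the STZ arrays, against 362 to 404 on the sham arrays (list median of changes 0.79), and sebaceous gland markers to 2.99 to 13, against 3.2 to 6.43 (−0.35). Endothelial markers summed to 6.04 to 11.6 on the STZ arrays, against 4.29 to 5.71 on the sham arrays (0.45), skeletal muscle markers to 282 to 350, against 264 to 401 (−0.55), and those of other stratified epithelia to 1.48 to 2.76, against 1.42 to 2.15 (0.05). Ecm1 was the brightest gene of that last list on every array and made up most of its sums. Krt4, of the same list, was the 1 marker above background in no sample. All these sums weigh each gene by how brightly its probe reports, so they do not rank genes by amount of RNA. The part of these markers in the values of Ivl, Evpl and Ppl was not tested.

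For the genes at both ends of the set, the named genes most alike over the 4 arrays were sought by the root mean square difference of log2 values centred on each gene's mean, among 12615 genes. For Tgm3, the highest change, they were Zfp652 (0.0355), Galnt4 (0.036) and Pls3 (0.0388), with changes of 0.45, 0.39 and 0.34. For Evpl, the lowest change, they were the zinc exporter gene Slc30a1 (0.237), the mitochondrial carrier gene Ucp2 (0.323) and Tent5b (0.337), with changes of −2.95, −2.67 and −2.74. With 4 arrays such likeness describes these libraries and nothing more.

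**Figure D4:**
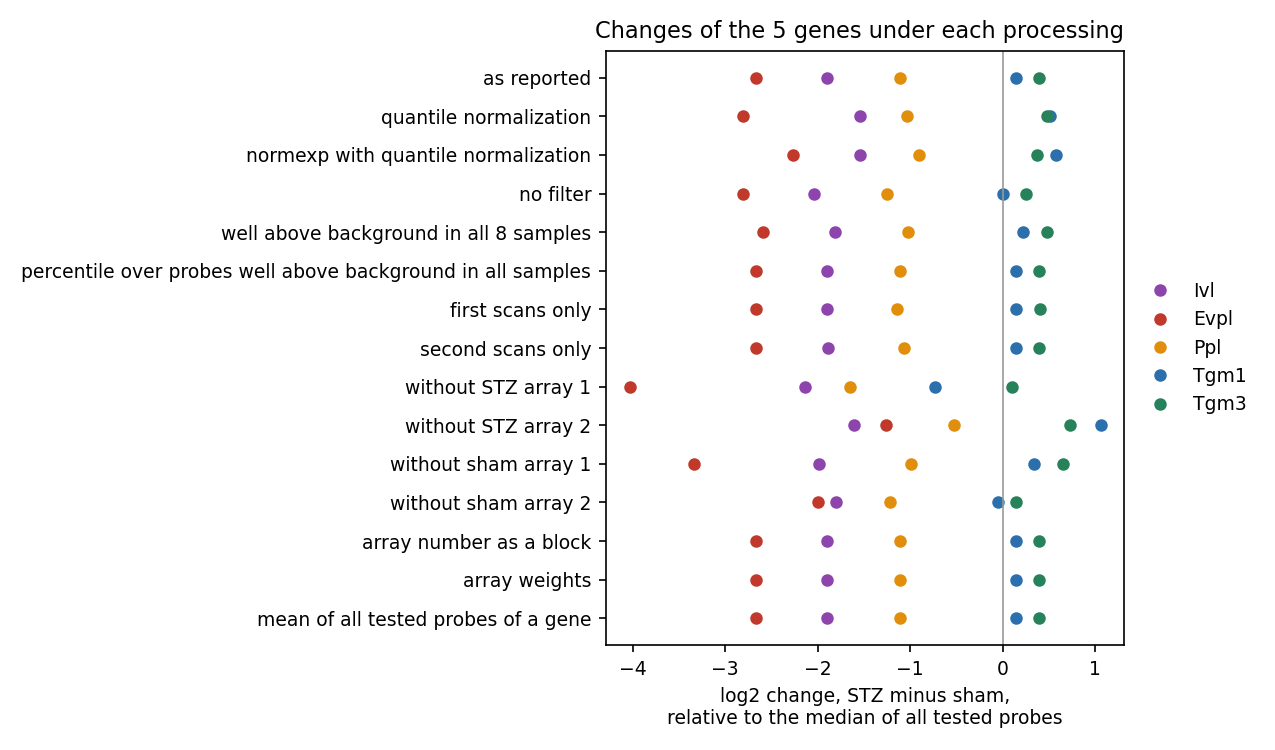
Log2 change of STZ minus sham set against the median over tested probes (horizontal axis) of the 5 measured genes (coloured points) under each way of processing (rows). Ivl stays between −2.14 and −1.54, while Evpl runs from −4.03 to −1.26 and Tgm1 from −0.73 to 1.06, with its sign turned without STZ array 1 and without sham array 2.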

How the data were processed

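Skin RNA was read on single-dye (Cy3) Agilent arrays, as the labels' protocols state. The deposited intensity of each spot is, per the file headers, the processed signal of Agilent's scanner software (Feature Extraction 11.0.1.1), with background subtracted and no scaling across arrays (11.0.0.1 in the submitters' processing notes). Deposited median spot and background intensities served 1 alternative. Flags for background, saturation and outliers are other values, 0 or 1, deposited with the signals, and no spot was saturated.

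Rescans were recognised by array position, and their spot deviations correlated at 0.957 or more, against 0.75 or less between other samples (3709 spots). Signals were taken to log2 and scaled by each sample's 75th percentile over 42136 noncontrol spots. Spots without an outlier flag were averaged per probe, rescans were averaged, and a probe was kept if 4 or more of the 8 samples had it well above background (21527 of 24684). A probe counted so where most of its spots did. STZ and sham were compared with limma 3.58.1 in R 4.3.3 (lmFit and eBayes, two-sided, Benjamini-Hochberg over all tested probes; prior degrees of freedom 3.00, residual 2). The p tests the change on the 75th percentile scale. The number of arrays limits the precision. Accessions, without versions, were named through RefSeq of GRCr8, and a gene with several probes is given by the brightest.

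The genes and lists were chosen with earlier results of these data known. Named from each related list were up to 4 genes with the smallest p, and 3 genes most alike in pattern. Normalization, background correction, filter, scan, array left out, block and weights were varied.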

Additional observations from a re-analysis of the deposited data

How the results depend on the processing

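Ivl, Evpl and Ppl stayed lower and Tgm3 higher under all 14 alternatives run. Not all of these could move a change. The mean over a gene's probes was the same value, as each gene had 1 probe. Another percentile, array weights and the replicate block also left the change of Ivl at −1.89. The median change of the 5 genes was −0.90 after normexp with quantile normalization and ran from −1.65 to −0.52 with each array left out. Between 0 and 3 of the 5 had an unadjusted p under 0.05 with an array left out (0 without either sham array), and 2 under the filter that asks for all 8 samples, with the replicate block and with array weights, Evpl being the second. Of all probes, 677 to 5382 were higher and 305 to 1093 lower with an array left out, at most without STZ array 1 and fewest without sham array 2. Quantile normalization gave 1152 lower and normexp with it 1358. After adjustment 48 probes passed without STZ array 1, none of them in the set, and 0 in every other fit. Tgm1 turned sign at −0.73 to −0.05 with arrays left out (without STZ array 1 and sham array 2), between a lowest of −0.73 and a highest of 1.06. Leave-one-array ranges of other genes that turned were −0.32 to 0.74 for Tgm4, −0.33 to 0.28 for Dst, −1.12 to 0.23 for Macf1, −1.37 to 0.73 for Plec and −2.35 to 0.52 for Dsc3. With quantile normalization Tgm4 was −0.43 and Dst 0.29, with normexp added they were −0.16 and 0.32, and under the filter that asks for all 8 samples Dst was 0.033. The causes were not tested.

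The replicate numbers were also fitted as a block. Array 1 minus array 2 correlated at −0.20 between the groups over the tested probes. With a single such difference per group, this cannot decide whether the numbers pair the arrays. With the replicate block the change of Ivl was −1.89 (unadjusted p = 0.0322), of Evpl −2.67 (0.049) and of Ppl −1.11 (0.196), and 590 probes were lower and 1582 higher. All arrays were on 1 slide, so a slide block could not be fitted, and the scans were fitted one at a time. With an array left out, its group rests on a lone array whose spread is taken from the other group. Single spots and 2 arrays per group limit every value.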
